A study of Mus musculus with 10 samples.

Results

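Glycolysis splits glucose into pyruvate in the cytosol, and lactate dehydrogenase and a monocarboxylate transporter turn that pyruvate into lactate and carry it out of the cell. The genes described here are Slc2a1, Hk1, Hk2, Pfkl, Pfkp, Aldoa, Pgk1, Pkm, Ldha and Slc16a1, which encode the glucose transporter GLUT1, enzymes of 6 steps and the lactate transporter MCT1. They were taken by symbol, from a list drawn up with earlier results of these data known. They are 10 of the 52636 genes of the count table. All 10 passed the filter on low counts and belong to the 15916 genes tested. RNA came from leukaemic progenitors of the mouse DIN model. To make it, fetal liver cells were transduced with 3 MSCV retroviral vectors, for DNMT3A R882H with dsRed, IDH2 R140Q with GFP and NRAS G12D with the TTA transactivator, and went into sub-lethally irradiated female Ptprca recipients. Frozen cells from moribund mice were then transplanted into further Ptprca recipients, which received normal or doxycycline chow and water. Doxycycline switches the DNMT3A vector off, so libraries from treated mice are called off and those from untreated mice on. The IDH2 R140Q and NRAS G12D vectors were present in all 4 groups. The 14-day treatment gave 4 libraries, and each of the other 3 groups (untreated at 14 days, treated and untreated at 5 days) gave 2.

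Several members of the pathway come as isoenzymes made from separate genes, and which one a blood cell uses changes as it matures. Mature red cells have no mitochondria and depend on glycolysis for ATP, and red cell precursors, granulocytes and stem cells differ in the isoenzymes they express. Hypoxia-inducible factor and MYC are both known to drive many of these genes, among them Ldha, Pgk1 and Slc2a1.

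The cells were sorted as cKit-positive and Cd11b-negative from marrow and spleen. The sources used here do not say which organ or how many mice gave each library, so p-values measure the spread between libraries, part of which may be technical. They name no sort gate on dsRed, GFP or a donor surface marker, and the recipients keep their own progenitors. No control received doxycycline in cells free of the regulated vector, so effects of the drug itself and of the vector cannot be told apart. Mouse Dnmt3a was at 31.9 to 39.2 counts per 1000000 (CPM) in the day 14 off libraries and at 55.9 and 73.6 CPM in their on pair, and at day 5 at 65.6 and 50.2 CPM off and 52.8 and 51.2 CPM on. Its log2 change was -0.90 ± 0.16 at day 14 (edgeR adjusted p = 0.00186) and 0.15 ± 0.19 at day 5 (0.754). The vector's species and 3′ end are not given, so this gene is no check of the switch. Libraries held 9292644 to 14340624 counts each, and genes at ribosomal RNA loci took 7.78% to 16.5% of them. Kit, the gene of the sort marker, averaged 34.5 ± 2.52 CPM in the day 14 off group (SD, n = 4) and 93.5 ± 6.48 CPM in the on group (SD, n = 2), and Itgam, the gene of Cd11b, 3.15 ± 0.744 and 15.3 ± 9.27 CPM. Itgam RNA was thus not absent after the sort. One library stood apart for these genes. Day 14 off replicate 3 had the highest value of its group in 8 of the 10 genes (80%), against 29.7% of all tested genes. Calls of the 10 genes that change without this library are given both ways.

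At day 14, Hk1 and Slc16a1 were several-fold higher with R882H off, Ldha was slightly higher, and Pkm and Pgk1 were lower. Hk1, a hexokinase that starts glycolysis, rose 5.65-fold, and Slc16a1, the lactate transporter, rose 4.21-fold. Ldha, lactate dehydrogenase A, rose 1.39-fold, Pkm, the pyruvate kinase of most tissues, fell 2.15-fold and Pgk1, phosphoglycerate kinase, fell 1.52-fold. The other 5 genes did not pass the test. The threshold was 0.05 on the p of edgeR's quasi-likelihood test, adjusted over all tested genes by the Benjamini-Hochberg method, and genes past it are named called. By that rule 5 of the 10 genes were called, 3 higher and 2 lower, in a comparison that called 31.8% of all tested genes, 16.9% higher and 14.9% lower. The calls of Hk1 and Slc16a1 held in all 19 alternative fits, and those of Ldha, Pkm and Pgk1 were each lost in some. The day 14 groups did not overlap in 6 of the 10, against 52.5% of all tested genes. With so many genes called in all, the counts say nothing particular about glycolysis, and the median log2 change of the 10 genes was -0.24 against 0.01 for all tested genes. Single genes moved in opposite directions. In these bulk libraries, fewer cells of a type and less RNA per cell cannot be told apart.

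**Figure D1:**
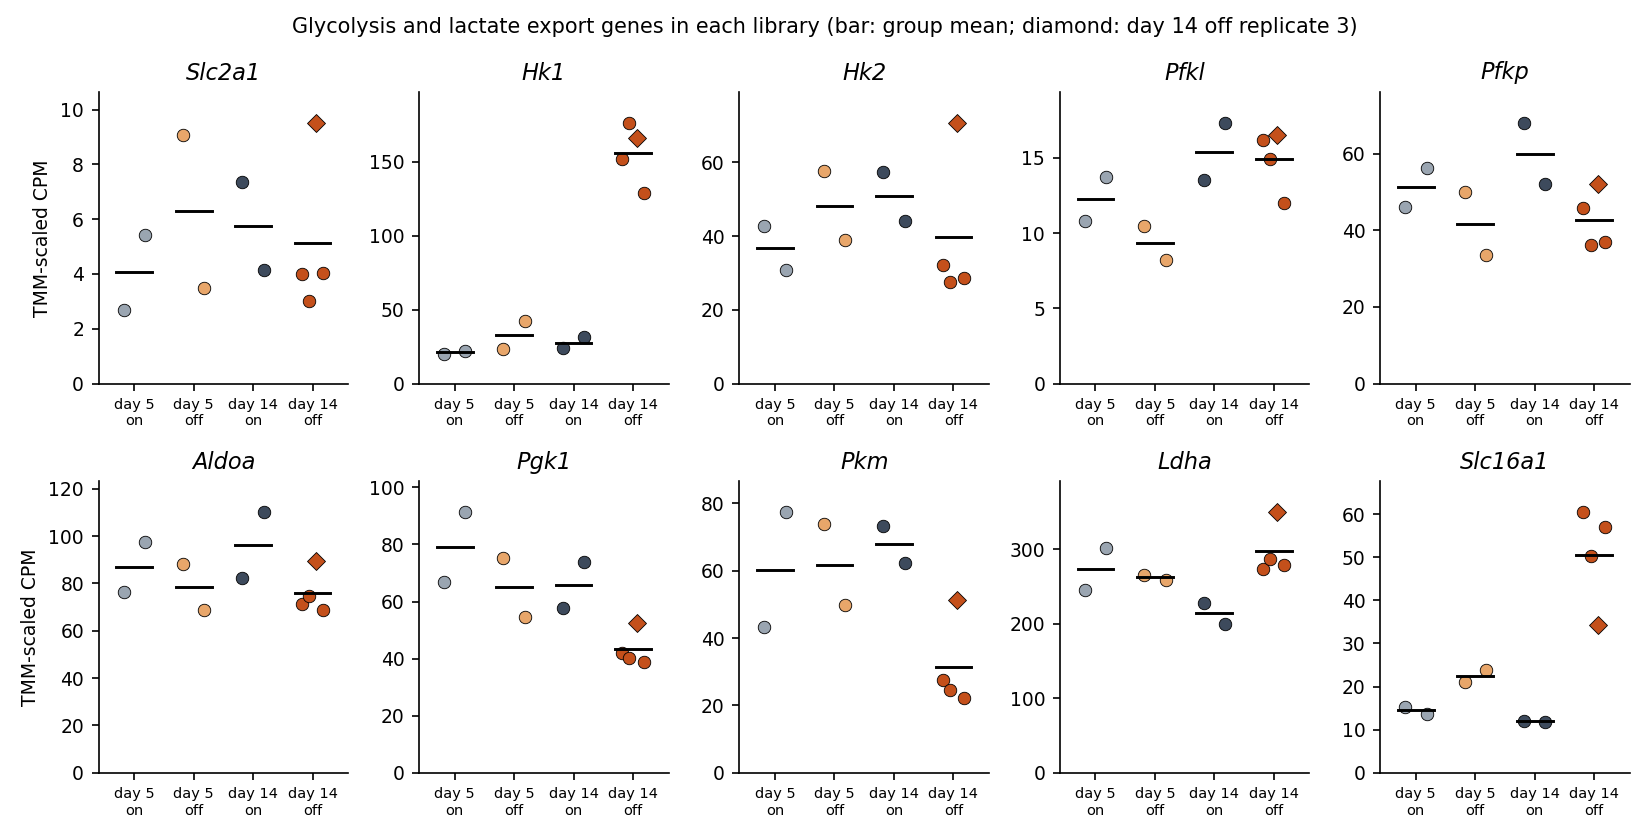
TMM-scaled CPM (vertical axis, from 0, separate scale per gene) of the 10 genes in each library, by group along the horizontal axis. Points are libraries, bars are group means and the diamond is day 14 off replicate 3. Hk1 and Slc16a1 in the 4 day 14 off libraries lie above every other library, and in 8 of the 10 panels the diamond is the highest day 14 off point.

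Slc2a1 (ENSMUSG00000028645, chromosome 4, 119108711 to 119137983, GRCm38) encodes GLUT1, a carrier that brings glucose across the plasma membrane. Its RNA was counted, and glucose entry was not measured. Its level was 3.98, 3.00, 9.50 and 4.05 CPM in the day 14 off libraries and 7.36 and 4.15 CPM in the on pair. The day 5 libraries had 9.07 and 3.49 CPM off and 2.70 and 5.41 CPM on. All 4 groups overlap their neighbours in the order of means, and the high value at day 14 off is replicate 3. The day 14 log2 change was -0.15 ± 0.53 (SE; 95% interval -1.34 to 1.03; edgeR adjusted p = 0.855). Only 613 counts over the 10 libraries lie behind these values, and the interval is wide. The change became -0.66 without replicate 3 and 0.28 without the first of the on pair, neither of them called.

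Hexokinase traps glucose in the cell as glucose 6-phosphate, and Hk1 and Hk2 encode its constitutive and its more inducible form. Hk1 (ENSMUSG00000037012, chromosome 10, 62268855 to 62379908) stood at 152, 176, 166 and 129 CPM in the day 14 off libraries and at 23.9 and 31.2 CPM in the day 14 on libraries. The day 5 values were 23.6 and 42.4 CPM off and 19.8 and 22.3 CPM on. Every day 14 off library thus lay above the other 6, and in the order of means day 5 off and day 14 on overlapped while day 5 on lay below them. The off group averaged 156 ± 20.7 CPM at day 14 (SD, n = 4), and the on group 27.6 ± 5.11 CPM (SD, n = 2). The log2 change was 2.50 ± 0.25 (SE; edgeR adjusted p = 9.15e-05). The call held in all 19 alternatives run, between 2.29 and 2.70.

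Transcription of Hk1 has 2 RefSeq starts, and 3′ tags do not tell their transcripts apart. The 250 bases before the outer one are shown because Hk1 had the largest change of the 10 genes. They lie at chr10:62379909-62380158 on the minus strand (GRCm38.p6, RefSeq), and the window of the inner start overlaps annotated exons and is not shown (it holds 6 CCNCNCCC and no match of the other 3 motifs). Here and in the windows that follow, 4 motifs were searched on both strands and their matches are in capitals, run together where they overlap: ACGTG, the core bound by hypoxia-inducible factors, CACGTG, the E-box bound by MYC and Mondo proteins, which itself holds ACGTG on each strand, GATAA, bound by GATA factors, and CCNCNCCC, bound by KLF factors.
Hk1 outer start: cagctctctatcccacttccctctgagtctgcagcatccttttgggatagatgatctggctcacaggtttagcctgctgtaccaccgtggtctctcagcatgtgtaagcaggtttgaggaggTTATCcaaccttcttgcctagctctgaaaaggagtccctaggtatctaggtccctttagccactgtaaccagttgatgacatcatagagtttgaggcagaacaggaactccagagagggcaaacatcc
The capitals in this window are a GATAA match on the opposite strand, and none of the other 3 motifs occurs in these 250 bases. GATAA is present in 22.6% of the 32817 mouse promoter windows of this length and in 4 of the 15 windows of the 10 genes.

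Hk2 (ENSMUSG00000000628, chromosome 6, 82725025 to 82774454) was the other hexokinase gene. Its day 14 off libraries had 32.1, 27.5, 70.6 and 28.7 CPM and the on pair 57.5 and 44.2 CPM. Day 5 values were 57.6 and 38.9 CPM off and 42.8 and 30.8 CPM on. Replicates 1, 2 and 4 lay below both day 14 on libraries and replicate 3 lay above them, so the groups overlap. Over all libraries the day 14 log2 change was -0.35 ± 0.37 (edgeR adjusted p = 0.507), and without replicate 3 it was -0.81 ± 0.21 (edgeR adjusted p = 0.0179).

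The balance of the hexokinases is the difference of the log2 counts of both genes in a library, which says how the reads split between the genes and takes no account of transcript length. The log2 ratio of Hk1 to Hk2 was 2.24, 2.68, 1.24 and 2.16 in the day 14 off libraries and -1.26 and -0.50 in the on pair. Day 5 libraries had ratios of -1.29 and 0.13 off and -1.11 and -0.47 on. As a share of the counts of the pair, Hk1 took 70.2% to 86.5% at day 14 off and 29.1% to 52.2% in the other 6 libraries, with no overlap. This was set out as a description and not tested.

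Phosphofructokinase commits sugar to glycolysis, and Pfkl and Pfkp encode its liver-type and platelet-type subunits. Pfkl (ENSMUSG00000020277, chromosome 10, 77986947 to 78010083) had 16.2, 14.9, 16.5 and 12.0 CPM in the day 14 off libraries and 13.5 and 17.3 CPM in the on pair. At day 5 it had 10.5 and 8.20 CPM off and 10.8 and 13.7 CPM on. The day 14 groups overlap, day 5 off lies below the other 3 groups, and the log2 change was -0.05 ± 0.20 (95% interval -0.50 to 0.40; edgeR adjusted p = 0.885). Pfkp (ENSMUSG00000021196, chromosome 13, 6579768 to 6648777) had 45.9, 36.3, 52.0 and 36.9 CPM in the day 14 off libraries and 68.0 and 52.1 CPM in the on pair, so the groups do not overlap but the highest off library nearly reached the lower on library. At day 5 Pfkp was at 50.0 and 33.5 CPM off and 46.2 and 56.3 CPM on. Its day 14 log2 change was -0.49 ± 0.21, which was not called (edgeR adjusted p = 0.0966), but was called lower with no filter on low counts (-0.51, 0.0431), in a fit of the compared groups alone (-0.54, 0.0384) and without day 14 off replicate 3 and day 5 off replicate 2 together (-0.59, 0.0407). Pfkp shares 748 exon bases with Pitrm1 on the opposite strand, whose counts were 33.7% of those of Pfkp and which rose by 1.24 ± 0.20 (edgeR adjusted p = 0.00121). The strand setting of the counting is not given in the sources used here, so reads of the shared bases cannot be assigned to one of them. The log2 ratio of Pfkl to Pfkp counts ran from -1.65 to -1.29 at day 14 off and from -2.34 to -1.59 in the other libraries, with overlap.

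In the middle of the pathway, aldolase splits the 6-carbon sugar and phosphoglycerate kinase makes the first ATP. Aldoa (ENSMUSG00000030695, chromosome 7, 126795234 to 126800751) had 71.2, 74.7, 89.6 and 68.7 CPM in the day 14 off libraries and 82.2 and 110 CPM in the on pair. For day 5 the values were 88.3 and 68.7 CPM off and 76.3 and 97.6 CPM on. All neighbouring groups overlap, and the day 14 log2 change was -0.33 ± 0.18 (95% interval -0.72 to 0.05; edgeR adjusted p = 0.171). Pgk1 (ENSMUSG00000062070, chromosome X, 106187100 to 106203699) had 42.0, 40.2, 52.5 and 38.7 CPM in the day 14 off libraries and 57.9 and 73.9 CPM in the on pair. Its day 5 values were 75.4 and 54.5 CPM off and 66.7 and 91.2 CPM on. Day 14 off was the lowest of the 4 groups and did not overlap the other 3, which overlapped among themselves. Off libraries averaged 43.4 ± 6.27 CPM at day 14 (SD, n = 4) and their on pair 65.9 ± 11.3 CPM (SD, n = 2), and the log2 change was -0.60 ± 0.19 (edgeR adjusted p = 0.0341). The call was lost without day 14 off replicate 1, 2 or 4 (edgeR adjusted p = 0.0712, 0.0716 and 0.0762) and without day 14 on replicate 2, where the change was -0.41 (0.26).

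The window before the Pgk1 start, at chrX:106186850-106187099 on the plus strand (GRCm38.p6, RefSeq), is shown as that of the classical hypoxia-driven member that was lower here. It holds 2 ACGTG matches and 1 CCNCNCCC match.
Pgk1: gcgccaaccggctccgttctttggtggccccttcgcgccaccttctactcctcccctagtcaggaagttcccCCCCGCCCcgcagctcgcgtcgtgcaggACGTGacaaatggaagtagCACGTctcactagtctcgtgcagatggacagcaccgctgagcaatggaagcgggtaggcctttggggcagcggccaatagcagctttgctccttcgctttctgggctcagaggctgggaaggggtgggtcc

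Pyruvate kinase ends glycolysis proper. Pkm (ENSMUSG00000032294, chromosome 9, 59656368 to 59679375) was at 27.6, 24.7, 51.2 and 22.3 CPM in the day 14 off libraries and at 73.4 and 62.3 CPM in the day 14 on libraries. At day 5 it was at 73.8 and 49.7 CPM off and at 43.4 and 77.3 CPM on. The day 14 groups do not overlap, but replicate 3 lies well above the other 3 off libraries and within the range of day 5. Its mean was 31.5 ± 13.3 CPM with R882H off (SD, n = 4) and 67.8 ± 7.82 CPM with it on (SD, n = 2). The log2 change at day 14 was -1.11 ± 0.34 (edgeR adjusted p = 0.0316), and -1.46 without replicate 3. The call was lost without day 14 off replicate 1, 2 or 4 (edgeR adjusted p = 0.0667, 0.0648 and 0.0633) and without day 14 on replicate 1 (0.15) or replicate 2 (0.081). A 3′ tag does not separate the M1 and M2 splice forms of Pkm, which share their last exons. A gene model on the same strand, Gm49759, shares 767 exon bases with Pkm and had 5.57% of its counts.

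Lactate dehydrogenase A reduces pyruvate to lactate and returns NAD to glycolysis. Ldha (ENSMUSG00000063229, chromosome 7, 46841475 to 46855627) had 273, 286, 349 and 279 CPM in the day 14 off libraries and 228 and 200 CPM in the on pair. Day 5 libraries had 265 and 259 CPM off and 245 and 302 CPM on. The day 14 groups do not overlap, the on pair lies below every other library, and the off libraries overlap day 5 on. The log2 change was 0.47 ± 0.14 (edgeR adjusted p = 0.0285), with a mean of 297 ± 35.3 CPM for the off libraries (SD, n = 4) and 214 ± 19.7 CPM for the on pair (SD, n = 2). Of the 5 calls, this one was lost under the most alternatives. The fit without day 14 off replicate 3 and day 5 off replicate 2 together ended this call, at 0.39. Leaving out any 1 of the 4 day 14 off libraries ended it (edgeR adjusted p = 0.0526, 0.0628, 0.0649 and 0.0533 without replicates 1 to 4), as did leaving out day 14 on replicate 1 (0.0899) or 2 (0.19) or day 5 off replicate 1 (0.0535). Annotated copies of its transcript end had 11 counts in all, 0.03% of its own.

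Before the first of the 2 RefSeq starts of Ldha, chr7:46845554-46845803 on the plus strand (GRCm38.p6, RefSeq) holds 5 ACGTG matches, 4 of them within its 2 CACGTG motifs, the most of any window of the 10 genes, and is shown for that reason.
Ldha first start: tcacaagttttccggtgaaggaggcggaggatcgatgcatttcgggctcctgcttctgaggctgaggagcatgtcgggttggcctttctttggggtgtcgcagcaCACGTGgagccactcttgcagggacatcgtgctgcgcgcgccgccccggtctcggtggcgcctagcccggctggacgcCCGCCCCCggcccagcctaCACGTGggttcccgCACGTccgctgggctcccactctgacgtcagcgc
ACGTG occurs in 16.6% and CACGTG in 6.02% of all mouse windows of this length, and in 8 and 2 of the 15 windows of the 10 genes, some of which overlap each other. These matches describe the letters and not binding.

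Slc16a1 (ENSMUSG00000032902, chromosome 3, 104638668 to 104658462) encodes MCT1, which carries lactate across the plasma membrane, and lactate export itself was not measured. It was at 60.4, 50.2, 34.4 and 57.0 CPM in the day 14 off libraries and at 12.1 and 11.8 CPM in the on pair. At day 5 it was at 21.1 and 23.9 CPM off and at 15.3 and 13.7 CPM on. The 4 groups followed one another without overlap, day 14 off first, then day 5 off, day 5 on and day 14 on. Here replicate 3 was the lowest day 14 off library, the reverse of its place in most of the other genes. The off libraries averaged 50.5 ± 11.5 CPM (SD, n = 4) and the on pair 12.0 ± 0.208 CPM (SD, n = 2), and the log2 change was 2.07 ± 0.23 (edgeR adjusted p = 0.000142). The call held in all 19 alternatives, between 1.96 and 2.23. Intronic gene models on the same strand had 15.4% of its counts and share no exon base with it.

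The window before the Slc16a1 start, at chr3:104638414-104638663 on the plus strand (GRCm38.p6, RefSeq), is shown beside that of Hk1 as the other gene that rose several-fold. It holds 1 GATAA, 1 CACGTG with its 2 ACGTG matches, and 3 CCNCNCCC matches, a motif found in 45.9% of all windows and 12 of these 15.
Slc16a1: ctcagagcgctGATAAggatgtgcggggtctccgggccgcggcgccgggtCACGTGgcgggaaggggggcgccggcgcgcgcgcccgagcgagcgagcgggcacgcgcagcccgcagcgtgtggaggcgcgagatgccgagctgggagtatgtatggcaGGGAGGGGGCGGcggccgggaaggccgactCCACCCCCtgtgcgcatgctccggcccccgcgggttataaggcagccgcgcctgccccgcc

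At day 5 edgeR called 0 of the 10 genes, in a comparison that called 0.484% of all tested genes. The 2 genes that moved most at day 14 were also the ones with an unadjusted p under 0.05 here, which 14.9% of all tested genes had. Slc16a1 had a log2 change of 0.64 ± 0.25 (edgeR adjusted p = 0.263) and Hk1 of 0.65 ± 0.26 (0.285). Without day 5 off replicate 2 the change of Hk1 was 0.16 and that of Slc16a1 0.55. Changes of the other 8 genes lay between -0.39 for Pfkl and 0.59 for Slc2a1, each with a 95% interval that includes 0. DESeq2 and limma voom called 0 of the 10 as well.

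**Figure D2:**
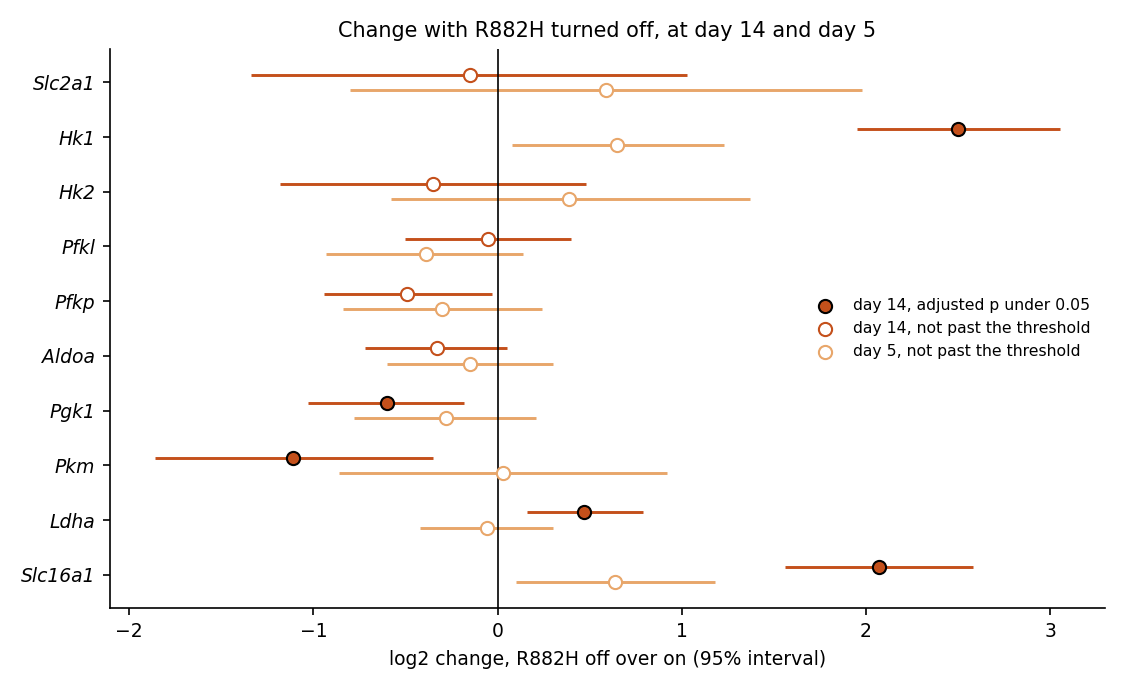
Log2 change with R882H off over on (horizontal axis) of each gene at day 14 and day 5, with 95% intervals as bars. Filled points have an edgeR adjusted p under 0.05. Hk1 at 2.50 and Slc16a1 at 2.07 stand clear at day 14 and have smaller values at day 5.

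Across time, with R882H on, edgeR called 0 of the 10 genes between day 5 and day 14, against 2.32% of all tested genes, and 0 of the 10 had an unadjusted p under 0.05, against 20.4%. DESeq2 and voom called 0 as well. Ldha had the largest fall at -0.36 ± 0.16 (edgeR adjusted p = 0.252). With R882H off, 2 of the 10 were called and both were higher, Hk1 at 2.23 ± 0.24 (edgeR adjusted p = 0.00105) and Slc16a1 at 1.16 ± 0.22 (0.00612), where 17% of all tested genes were called and 10.1% were higher. The Slc16a1 call was lost without day 5 off replicate 1 (edgeR adjusted p = 0.0816). Just short of a call lay Pfkl at 0.67 ± 0.21 (0.0524), Pgk1 at -0.58 ± 0.19 (0.0611) and Pkm at -0.97 ± 0.34 (0.0783), and without day 14 off replicate 3 Pkm, at -1.32 (0.0125), Pgk1, at -0.70 (0.0456), and Hk2, at -0.72 (0.0499), were called lower. Without day 5 on replicate 1 or 2, Pgk1 was called lower (0.0327 and 0.0362) and Pfkl higher (0.0446 and 0.0454). The comparisons over time and those of off with on use the same libraries, so none is a second measurement of another.

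The difference between the days was tested itself, as the off over on change at day 14 minus that at day 5. It was called for 2 of the 10 genes, both positive, against 3.06% of all tested genes and 1.65% in that direction. Hk1 had a difference of 1.85 ± 0.35 (edgeR adjusted p = 0.0278) and Slc16a1 of 1.43 ± 0.33 (0.0463). The direction held in all 18 alternatives for both. The calls did not: that of Hk1 was lost without day 14 off replicate 1, 2 or 4, day 14 on replicate 1 or 2, day 5 off replicate 1 or day 5 on replicate 2 (edgeR adjusted p from 0.0507 to 0.0866). The call of Slc16a1 was lost without any 1 library other than day 14 off replicate 3 (0.0566 to 0.192), with RLE scaling (0.0501) and with limma voom (0.081). For Ldha (0.54 ± 0.22, 0.175) and Pkm (-1.13 ± 0.53, 0.231), the difference between the days was not called.

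Of 23 further genes of glycolysis and of glucose or lactate transport, 18 were tested. At day 14, 4 were called higher (22.2%) and 4 lower (22.2%), against 16.9% and 14.9% of all tested genes. Pklr, the pyruvate kinase of liver and red cells, rose by 4.73 ± 0.55 (edgeR adjusted p = 0.000221). It had 24.0, 27.9, 30.2 and 32.0 CPM in the day 14 off libraries against 1.14 and 0.994 in the on pair, with 6.82 CPM in day 5 off replicate 2 and 1.24 to 1.50 in the other day 5 libraries. Pklr thus rose where Pkm fell, and the day 14 groups do not overlap for either gene. Pfkm, the muscle-type phosphofructokinase subunit, rose by 1.42 ± 0.30 (0.00523). Slc16a7, the lactate transporter MCT2, fell by 2.40 ± 0.43 on the log2 scale (0.0021), with means of 0.561 CPM off and 2.97 CPM on, and Eno3, the muscle-type enolase, fell by 1.31 ± 0.31 (0.00945). The other 4 called were Tpi1 and Bsg, higher, and Aldoc and Pgam2, lower. Bsg, the chaperone that brings MCT1 to the membrane, rose by 0.41 ± 0.12 (0.0241). Gapdh had a change of 0.00 ± 0.16 (0.99) and Slc2a3, a second glucose carrier, of 0.29 ± 0.18 (0.251). Slc16a3, the lactate transporter MCT4, was not called, at 2.73 to 6.06 CPM in the day 14 off libraries and 3.83 and 2.08 CPM in the on pair.

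**Figure D3:**
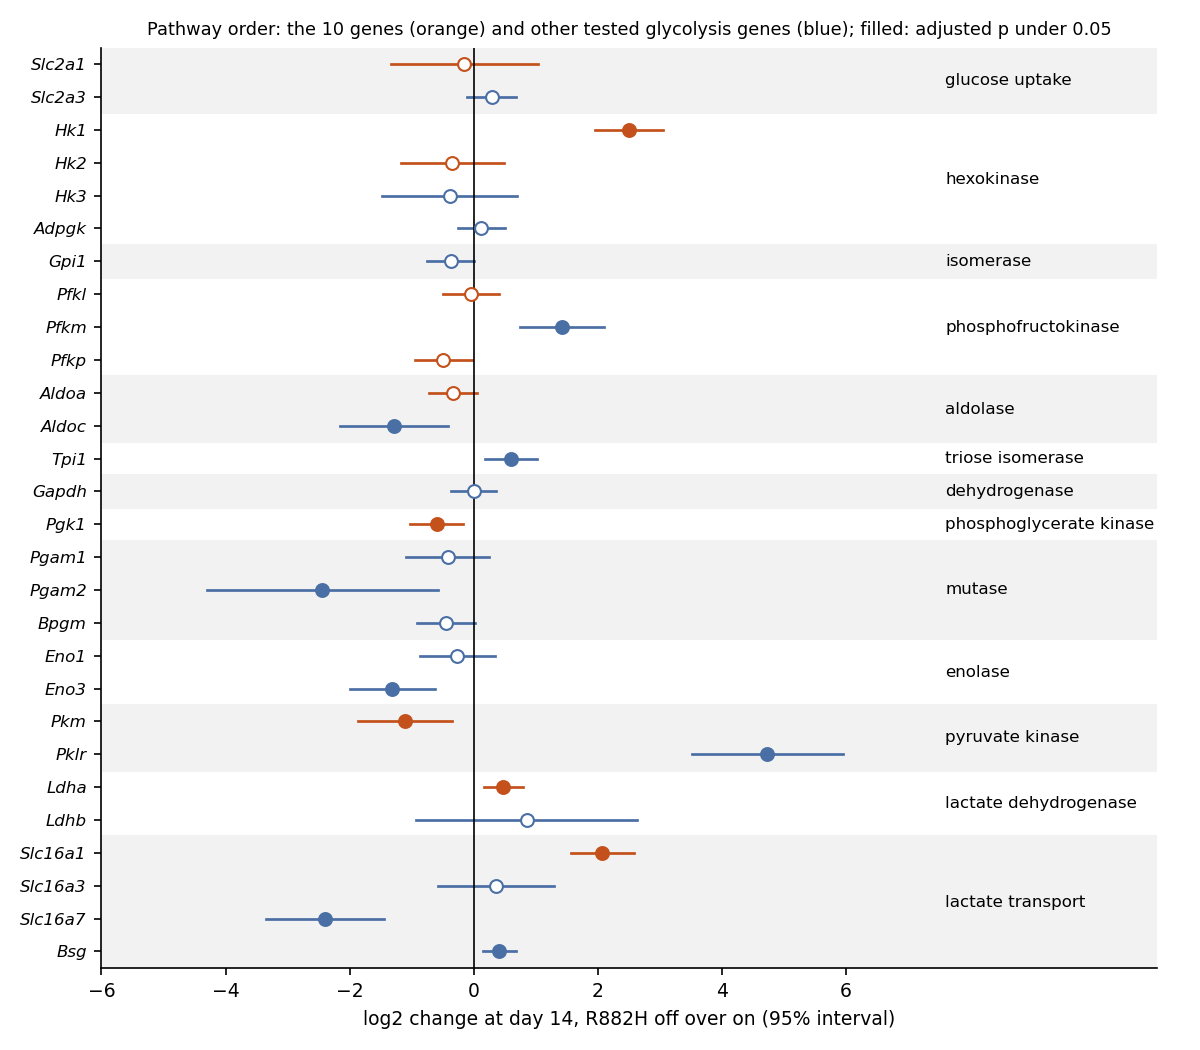
Log2 change at day 14, R882H off over on (horizontal axis, 95% intervals), of the 10 genes (orange) and the 18 other tested glycolysis genes (blue) in pathway order. Filled points have an edgeR adjusted p under 0.05. The pyruvate kinases lie on opposite sides of 0, with Pklr at 4.73 and Pkm at -1.11.

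Of 17 tested genes that set the rate of glycolysis or the fate of pyruvate, 7 were called lower and 0 higher at day 14, against 14.9% and 16.9% of all tested genes. An unadjusted p under 0.05 was found for 10 of the 17 and for 42.4% of all tested genes, and the 17 had a median of -0.62 against 0.01 for all tested genes. The list pools genes that promote these steps with genes that oppose them, so its counts and median give no direction for the pathway. Pdp1, a phosphatase that switches pyruvate dehydrogenase on, had 4.40 to 5.18 CPM in the day 14 off libraries and 20.4 and 21.6 CPM in the on pair, a change of -2.12 ± 0.18 (edgeR adjusted p = 4.98e-05). Hif1a, the oxygen-regulated subunit of hypoxia-inducible factor, changed by -0.74 ± 0.16 (0.00544), and Mlxip, the glucose sensor MondoA, by -1.12 ± 0.25 (0.00606). Pfkfb4, an enzyme that sets the level of an activator of phosphofructokinase, changed by -1.25 ± 0.29 (0.00802). Hypoxia targets outside glycolysis split, with 3 of 16 higher and 3 lower, near the shares of all tested genes. Vegfa changed by 3.32 ± 0.37 (0.000138) and Higd1a by 0.82 ± 0.14 (0.00189), against -2.65 ± 0.30 (0.000215) for Anxa2 and -3.37 ± 0.42 (0.000383) for Egln3. In day 14 off replicate 3, 12 of these 16 genes (75%) had the highest value of the group. So had 8 of the 10 glycolysis genes, against 29.7% of all tested genes. This library was also the deepest, at 14340624 counts, with the lowest share at ribosomal RNA loci, 7.78%. Its summed monocyte markers were the highest of the group (1630 CPM against 786 to 1100) and its summed neutrophil markers the lowest (752 against 795 to 1090). The part of any of these in its high Hk2, Slc2a1 and Pkm was not tested.

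Counts in side and downstream routes at day 14 are to be read against 16.9% higher and 14.9% lower among all tested genes, and 42.4% with an unadjusted p under 0.05. The pentose phosphate pathway, which branches off after hexokinase, had 2 of 7 genes called higher and 0 lower, Rpia at 1.54 ± 0.26 (edgeR adjusted p = 0.00168) and Pgls at 0.51 ± 0.16 (0.0335). Entry of pyruvate into mitochondria had 3 of 7 higher and 0 lower, all of them subunits of the pyruvate dehydrogenase complex, Dlat at 0.69 ± 0.18 (0.0125), Pdhx at 0.72 ± 0.19 (0.0138) and Dld at 0.42 ± 0.14 (0.0373). Of 16 genes of the tricarboxylic acid cycle, 7 were called higher and 0 lower, with a median of 0.37. Among them Suclg2 rose by 1.16 ± 0.18 (0.000936), Dlst by 0.85 ± 0.12 (0.00062) and Mdh2 by 0.65 ± 0.14 (0.00493). No gene of these 3 routes was called lower, while 1 tested gene of the cycle and 2 of the pentose phosphate pathway had negative values, and the count at an unadjusted p under 0.05 in either direction was 3, 3 and 11.

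Markers of red cell precursors moved with Hk1 and Slc16a1. Of 20 erythroid genes 13 were called higher and 0 lower at day 14 (18 had an unadjusted p under 0.05), against 16.9% and 14.9% of all tested genes, among them Ermap, a red cell membrane protein, at 5.26 ± 0.49 (edgeR adjusted p = 9.64e-05) and Epor, the erythropoietin receptor, at 4.18 ± 0.44 (0.000119). Summed over all 20, the level was 4430 to 5690 CPM in the day 14 off libraries and 1700 and 2410 CPM in the on pair, and none of the 4 globin genes was called. Summed over the 16 that are not globins, a split made after the values were seen, it was 2330 to 2530 CPM off and 208 and 305 CPM on. At day 5 it was 928 CPM in off replicate 2, 329 in off replicate 1 and 221 to 319 on. Off replicate 2, highest of the day 5 libraries in this sum, was also highest of them in Hk1, Slc16a1 and Pklr. Most of its sum came from Car1, Car2 and Tfrc, at 314, 211 and 203 CPM. Alas2 and Slc4a1 were instead highest in day 5 on replicate 2, at 5.33 and 7.13 CPM against 1.38 and 3.81 CPM. Ank1 was highest in off replicate 1, at 18.1 CPM against 16.6 CPM, and the other genes of the sum in off replicate 2. Over all 20 genes, globins included, the day 5 libraries had 1210 and 2760 CPM off and 1560 and 3670 CPM on, so there the highest was on replicate 2. No erythroid gene was at 0 in every library of a group. The part of erythroid cells in the changes of Hk1 and Slc16a1 was not tested.

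**Figure D4:**
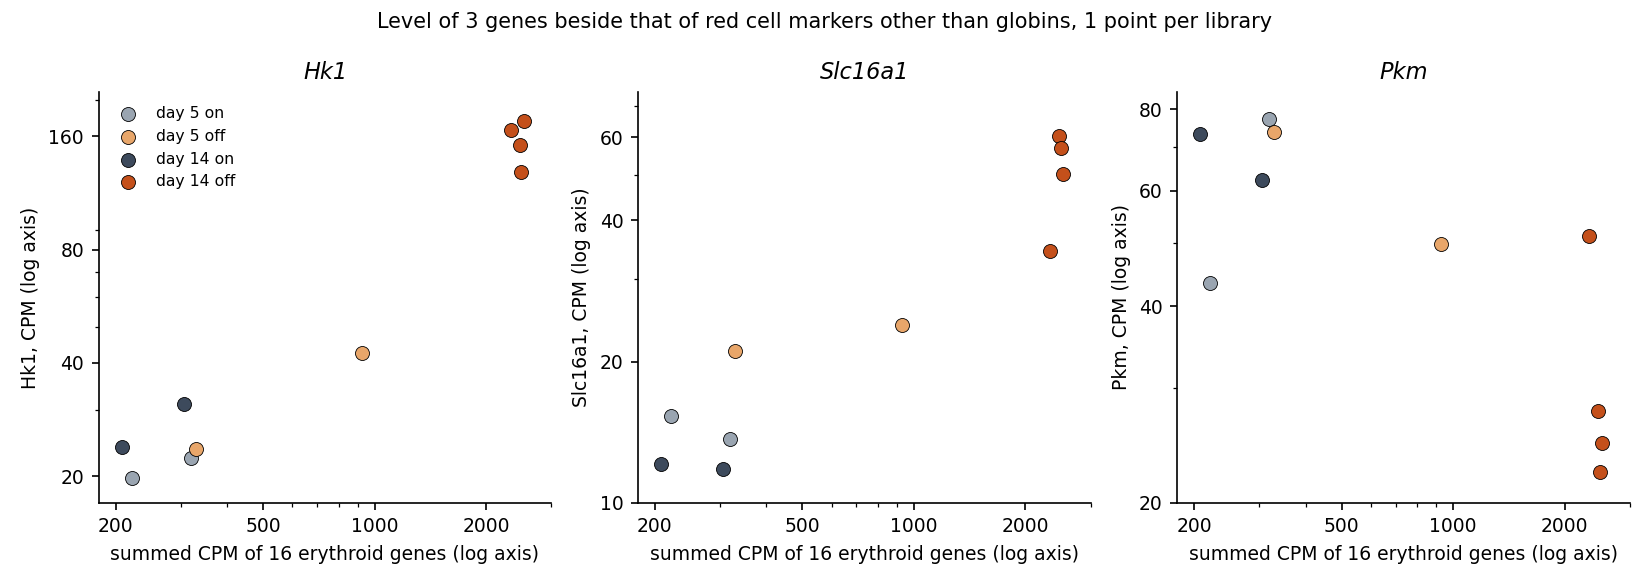
CPM of Hk1, Slc16a1 and Pkm (vertical log axes) against the summed CPM of 16 erythroid genes other than globins (horizontal log axis), 1 point per library, coloured by group. Day 14 off libraries lie at 2330 to 2530 CPM with the highest Hk1 and Slc16a1, and day 5 off replicate 2 lies between them and the rest at 928 CPM.

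Markers of other cells were counted against the same shares, 16.9% higher and 14.9% lower among all tested genes. The counts cover the tested genes of each list, and the CPM sums cover all its genes, tested or not. Neutrophil genes had 1 of 15 called higher and 6 lower at day 14, with sums of 752 to 1090 CPM off and 1170 to 2050 CPM on. Monocyte genes had 0 of 11 higher and 4 lower, with overlapping sums of 786 to 1630 CPM off and 633 to 2000 CPM on. Megakaryocyte genes had 2 of 7 higher and 1 lower (44.1 to 70.0 against 49.2 to 62.0 CPM), and T and NK cell genes 1 of 10 higher and 3 lower (103 to 164 against 125 to 161 CPM). B cell genes had 1 of 7 lower (52.6 to 107 against 155 to 221 CPM), stromal genes 1 of 3 higher and 1 lower (57.1 to 81.7 against 136 to 235 CPM), and mast cell genes 1 of 4 lower (32.1 to 43.7 against 20.1 to 35.0 CPM). The mast cell tryptase genes Tpsb2 and Tpsab1 had no count in any library, which with 3 counts as the limit allows up to 0.209 to 0.323 CPM, depending on depth. At 0 in the off group of day 14 were also Cma1, Fcer1a and Kdr, and in the on group Mcpt4, Fcer1a, Col3a1 and Cdh5 were among those at 0. The part of these cells in the changes of Pkm, Pgk1 and Ldha was not tested.

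The genes most like Hk1 and Pkm, the largest rise and the largest fall among the 10, were sought by the root mean square difference of log2 CPM, each gene centred on its own mean, over the 10 libraries and 8282 protein-coding genes of at least 3 mean log2 CPM. Nearest to Hk1 were Ttll12 at a difference of 0.18, Abcb10 at 0.21 and Fpgs at 0.28, which had day 14 log2 changes of 2.86 ± 0.23, 2.35 ± 0.31 and 2.60 ± 0.38. Nearest to Pkm were Fkbp1a at 0.13, Dtx4 at 0.18 and Wdfy1 at 0.23, with -0.91 ± 0.28, -1.27 ± 0.32 and -1.06 ± 0.20. These were picked for their likeness over the same libraries and are given as a description.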

How the data were processed

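QuantSeq 3′ libraries were made and sequenced single-end, per the labels' protocols. The authors deposited raw counts of reads per gene (52636 Ensembl genes, 52489 matched to GENCODE M21, 147 unmatched). Tools named in the submitters' processing notes are HISAT2 2.0.4 and Subread 2.0.0 with featureCounts, besides cutadapt, bcl2fastq 2.17.1.14, limma 3.48.3 and edgeR 3.34.0, with build mm10. No source used here gives their settings. Tags lie near transcript ends, so levels were compared between libraries and not between genes.

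Counts were fitted in R 4.3.3 with edgeR 4.0.16 (filterByExpr over 4 groups, TMM scaling, robust quasi-likelihood, 1 mean per group, all 10 libraries) with Benjamini-Hochberg adjustment over 15916 genes. CPM values are TMM-scaled. Besides the 10 genes, the text names up to 4 called genes of smallest p per pathway list at day 14, up to 2 erythroid genes, and 3 genes each most like Hk1 and Pkm. Some genes the rule would name are not reported here. Tpi1, Bsg, Aldoc, Pgam2, Gapdh, Slc2a3, Slc16a3, Pitrm1, Gm49759, Kit, Itgam, Dnmt3a and markers at 0 were named outside that rule, after their values were seen. The 10 genes and all lists were chosen with earlier results of these data known. Alternatives were RLE scaling, 5 CPM in 2 libraries or no limit as the filter, DESeq2 1.42.0, limma voom 3.58.1, a replicate block, a fit of the compared groups alone, and leaving out each library. Chosen after seeing the data were a fit that drops 3 genes at ribosomal RNA loci and one that drops day 14 off replicate 3 and day 5 off replicate 2 together. The fit was tested on simulated data. RefSeq promoter windows matched all 10 genes.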

Additional observations from a re-analysis of the deposited data

Results flagged for a closer look

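In day 14 off replicate 3, 3 of the 10 genes had a value far from the other 3 libraries of its group, measured as the gap to the nearest library over the range of the group, and past the 95% critical value of Dixon's test. They were Slc2a1 at 9.50 CPM (ratio 0.839), Hk2 at 70.6 CPM (0.893) and Ldha at 349 CPM (0.834). Chance alone puts about 1 in 20 such groups past that value. The change with R882H off differed between day 14 and day 5 for Hk1 by 1.85 and for Slc16a1 by 1.43 on the log2 scale, by a test of the difference itself.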

How the results depend on the processing

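At day 14 the calls of Hk1 and Slc16a1 held in all 19 alternatives, and those of Ldha, Pgk1 and Pkm did not. Without day 14 off replicate 3 and day 5 off replicate 2 together, 4 of the 10 genes were called lower at day 14, 3 were called lower between the days with R882H off, and Aldoa at day 5 was at 0.02. The cause of none of these shifts was tested. Over all genes, day 5 off over on called 77 genes, against 992 with no filter, 472 with DESeq2, and 0 with voom, with only the compared groups and without those 2 libraries. Between the days with R882H on it called 370, against 1275 with no filter, 1136 with DESeq2, 0 with only the compared groups and 83 without those 2 libraries. With R882H off, 1011 genes were called without them, against 2706. The difference between the days called 487 genes, against 1957 with no filter and 1327 with DESeq2, and RLE scaling and voom each called 1 of the 10 genes higher, against 2. With no filter 1 of the 10 was called lower there. Between the days with R882H off, 2 of the 10 were called lower with no filter, and 1 each with DESeq2 and only the compared groups, against 0. Pkm at day 5 was at 0 with the 5 CPM filter, and Pfkp between the days with R882H off at -0.33 without the 2 libraries. Fits of the compared groups alone were not run for the difference between the days, which needs all 4.

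Replicate numbers name the libraries, and no label says what they share. The r of same-numbered deviations was 0.03 to 0.334 over the 12 pairs of libraries and above 0.1 in 10 of them, short of all. Between groups of 2 libraries, numbers 1 and 2 give the same r by construction (0.3, 0.334 and 0.203). The 12 values are thus not separate measures. Those under 0.1 (0.03 and 0.091) were pairs with day 14 off replicate 1. With the number as a replicate block, 5196 genes were called at day 14, 225 at day 5, 1014 between the days with R882H on and 1521 for the difference between the days. In these blocked fits 2 of the 10 genes were called lower between the days with R882H off and 1 in the difference, Pfkl was at 0.02 at day 14, and Pfkp at -0.01 between the days with R882H off. The block ended the call of Ldha at day 14 (0.39, edgeR adjusted p = 0.0668) and added one for Hk2 (-0.76, 0.00477).

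Leaving out 1 library at a time, day 14 off over on called 2985 to 5738 genes and 0 to 3 of the 10 lower, with Slc2a1 at -0.66 to 0.28 and Pfkl at -0.24 to 0.15. Day 5 called 0 to 304 genes, with Slc2a1 at -0.24 to 1.23, Aldoa at -0.34 to 0.07, Pkm at -0.35 to 0.54 and Ldha at -0.23 to 0.12. With R882H on, the days differed in 0 to 680 genes, with Aldoa at -0.08 to 0.37, Pgk1 at -0.47 to 0.02 and Pkm at -0.19 to 0.68. With R882H off they differed in 601 to 3409 genes, 1 to 3 of the 10 higher and 0 to 3 lower, with Slc2a1 at -0.81 to 0.55, Hk2 at -0.72 to 0.02, Pfkp at -0.22 to 0.34 and Aldoa at -0.21 to 0.13. The difference between the days was called for 106 to 965 genes and 0 to 2 of the 10 higher, with Slc2a1 at -1.40 to 0.07, Pfkp at -0.45 to 0.10 and Aldoa at -0.43 to 0.04. A lone library of a group was assumed to vary like the others. Depth limits Slc2a1 most.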
